A study of Mus musculus with 4 samples.

Results

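The Toll-like receptor genes of the mouse were followed in open chromatin of livers after bile duct ligation, a model in which blocked bile flow leads to cholestasis and fibrosis. The members were 10 genes chosen by name, Tlr1 to Tlr9 and Tlr13, of 25458 genes that had a promoter or distal peak in either library. All 10 had peaks in both libraries, 81 assignments in the Mertk knockout library and 69 in the wild-type library. Mertk encodes a receptor tyrosine kinase with which macrophages bind and engulf dying cells, and both genotypes had undergone the ligation. Nuclei from frozen liver were read with the Multiome assay, which takes RNA and transposase-accessible DNA (ATAC) from the same nucleus. Each genotype had 1 ATAC library, so no test between genotypes was possible, and every difference below describes these libraries. The labels give neither the number, sex or age of the animals behind a library, nor the time after ligation, the strain, or how Mertk was disrupted.

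Toll-like receptors recognise conserved molecules of microbes and of damaged cells, and signal through adaptor proteins to NF-kB and interferon regulatory factors. One group sits at the cell surface and binds bacterial wall components and flagellin, and another sits in endosomes and binds nucleic acids. In the liver they are known from Kupffer cells (the resident macrophages), recruited monocytes, dendritic cells, sinusoidal endothelium and stellate cells, which meet gut-derived products arriving in portal blood. TAM receptors such as Mertk are known to dampen Toll-like receptor signalling in myeloid cells of the mouse.

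The files give the position of each peak and the gene or genes assigned to it, with no height, score or p-value, so a gene can be described by how many peaks it had, where they lay and how long they were in sum. A peak that is missing from a library was not called there, which does not show that the site was closed. In called nuclei the knockout library held 83996145 ATAC fragments over 5339 nuclei, and the wild-type library 40858512 over 5828 nuclei. Of these fragments 46.0% lay in peaks in the knockout library and 33.7% in the wild-type library. The knockout list was longer over the whole genome, with 106319 peaks against 72302, a ratio of 1.47, and covered 91.3 Mb against 61.8 Mb, with mean widths of 859 and 855 bp. Mertk itself had 13 knockout and 10 wild-type peaks, with a promoter peak in both, which does not check the genotype. Peaks of all nuclei were pooled, so fewer cells of a type and less open chromatin per cell cannot be told apart.

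The start regions show where the libraries agreed and where they did not. The sequences below are RefSeq promoter windows of GRCm38, from 250 bases before to 50 after an annotated start, printed 5′ to 3′ along the gene. RefSeq windows were matched for 8 of the 10 genes, 10 windows in all, while Tlr4 and Tlr7 were not matched. Capitals mark matches to 6 short binding patterns and the NF-kB consensus, searched on both strands. The patterns were GAGGAAGT for PU.1 and other Ets factors, TGANTCA for AP-1, GAAA, any 2 bases and GAAA for interferon regulatory factors (IRF), GGAA, any 2 bases and GAAA for the PU.1 and IRF composite, TTGCNNAA for C/EBP and TGTGGT for Runx. The composite can overlap the Ets and IRF patterns. The first pair is shown because each library's Tlr1 promoter peak covered a different one of the windows, the Tlr6 window because a wild-type peak alone covered it, and those of Tlr2 and Tlr9 as windows covered in both libraries.
Tlr1 upstream start, chr5:64933509-64933808, minus strand: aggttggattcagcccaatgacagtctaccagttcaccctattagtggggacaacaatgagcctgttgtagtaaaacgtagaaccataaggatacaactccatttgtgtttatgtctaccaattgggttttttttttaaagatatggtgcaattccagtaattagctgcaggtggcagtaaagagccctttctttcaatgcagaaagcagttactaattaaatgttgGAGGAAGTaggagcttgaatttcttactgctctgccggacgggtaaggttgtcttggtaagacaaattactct
Tlr1 downstream start, chr5:64932650-64932949, minus strand: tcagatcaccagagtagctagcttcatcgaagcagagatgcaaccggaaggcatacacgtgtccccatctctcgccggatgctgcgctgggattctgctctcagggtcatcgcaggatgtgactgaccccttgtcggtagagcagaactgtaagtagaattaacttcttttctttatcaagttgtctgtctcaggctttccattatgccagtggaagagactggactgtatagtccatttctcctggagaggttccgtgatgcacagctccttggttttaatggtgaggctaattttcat
Tlr6, chr5:64959117-64959416, minus strand: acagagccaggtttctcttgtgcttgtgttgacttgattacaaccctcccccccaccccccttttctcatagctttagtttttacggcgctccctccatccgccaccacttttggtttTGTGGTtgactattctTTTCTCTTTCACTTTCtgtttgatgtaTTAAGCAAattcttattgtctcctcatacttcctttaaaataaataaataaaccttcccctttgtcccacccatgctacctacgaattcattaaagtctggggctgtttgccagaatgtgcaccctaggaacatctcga
Tlr2, chr3:83841559-83841858, minus strand: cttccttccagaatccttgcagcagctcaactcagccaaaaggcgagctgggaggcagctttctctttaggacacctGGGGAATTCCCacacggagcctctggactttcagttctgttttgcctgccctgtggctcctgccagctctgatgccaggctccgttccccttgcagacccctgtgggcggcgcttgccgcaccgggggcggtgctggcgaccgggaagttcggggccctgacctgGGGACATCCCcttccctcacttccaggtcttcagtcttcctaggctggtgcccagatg
Tlr9, chr9:106222348-106222647, plus strand: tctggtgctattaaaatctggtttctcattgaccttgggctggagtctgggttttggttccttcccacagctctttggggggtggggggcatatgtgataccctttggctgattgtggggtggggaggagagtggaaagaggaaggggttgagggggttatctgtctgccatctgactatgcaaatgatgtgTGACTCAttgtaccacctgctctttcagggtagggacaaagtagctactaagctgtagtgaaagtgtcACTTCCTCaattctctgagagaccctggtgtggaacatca

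The upstream Tlr1 window held 1 Ets match, at bases 228 to 235 of the window, a pattern found in 3.20% of 32851 such windows of the genome. The downstream Tlr1 window held none of the patterns searched. The Tlr2 window held 3 NF-kB matches, of which 2 overlap each other. Of all windows, 4.51% held an NF-kB match. In the Tlr9 window lay 1 AP-1 match and 1 Ets match, and 7.81% of all windows held the AP-1 pattern. The Tlr6 window held 2 overlapping IRF matches (3.44% of all windows), 1 C/EBP match (10.8%) and 1 Runx match (16.8%). Among the windows not printed, Tlr3 had an NF-kB match and a C/EBP match, Tlr8 had 2 C/EBP matches, Tlr13 had 1, and Tlr5 and the other Tlr6 window had none. The composite pattern was in none of the 10 windows and in 2.72% of all windows. A match describes the letters only and says nothing of binding.

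Knockout peaks touched 7 of the 10 windows and wild-type peaks 8, with 6 touched in both libraries. The same share over all 32851 windows was not computed, so these counts have no background to be judged against. The window touched in neither was the Tlr6 one at chr5:64959999-64960298. The median base composition of the members' windows was 45.8% G and C, against 52.7% over all windows.

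Over the family, the knockout library had 81 peaks with a summed length of 70.2 kb, and the wild-type library 69 peaks with 58.4 kb. The ratio of peak numbers was thus 1.17, against 1.47 for all peaks. Of the 10 genes, 6 had more peaks in the knockout library, 3 had equal numbers and 1, Tlr8, had fewer. Over all genes with a peak, 60.3% had more peaks in the knockout library and 16.2% fewer. Summed length was greater in the knockout library for 9 of the 10, and for 73.2% of all genes. The order of the totals depended on the length of the lists. The knockout list was also shortened to the number of wild-type peaks by keeping the widest. The family then had 58 knockout and 69 wild-type peaks, and 8 against 9 members had a promoter peak. That cut removes knockout peaks alone, so the fall in their number was by construction. Keeping the widest peaks does not match the libraries for depth.

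**Figure D1:**
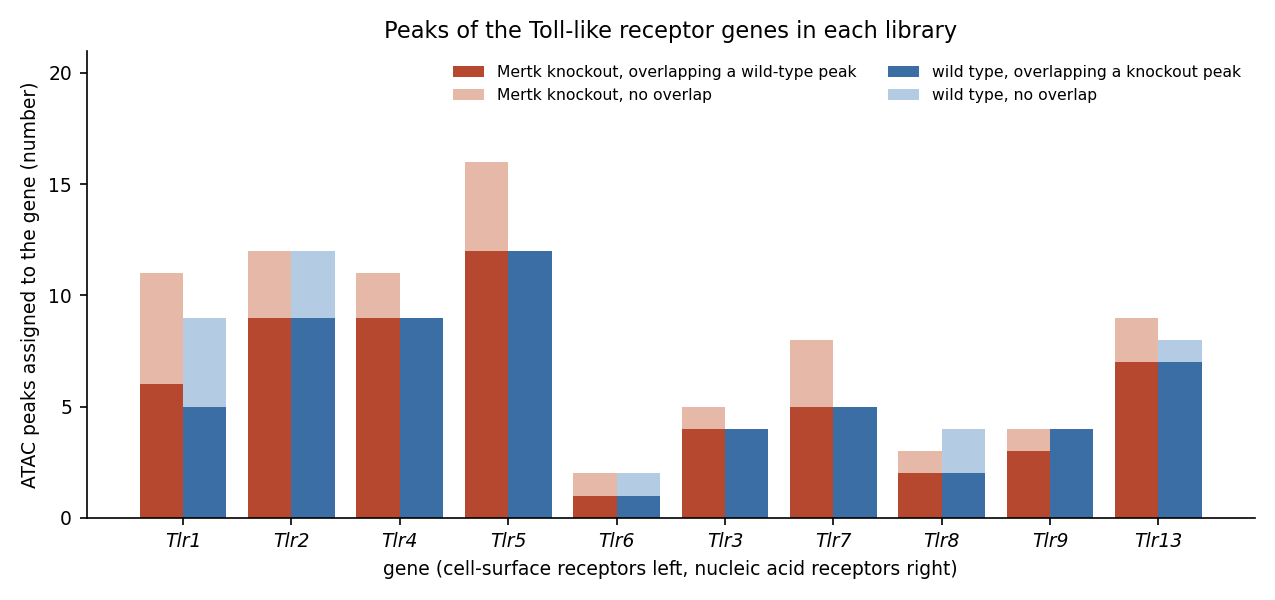
Number of ATAC peaks assigned to each Toll-like receptor gene (y axis) in the Mertk knockout library (left bar) and the wild-type library (right bar), 1 library each. Dark parts are peaks found in both libraries (1 bp or more in common) and light parts peaks found in 1. Tlr5 had the most knockout peaks, 16 against 12, and the wild-type bars of Tlr4, Tlr5, Tlr3, Tlr7 and Tlr9 have no light part.

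To set each gene against the surplus of knockout peaks, the summed lengths were compared as a log2 ratio, knockout over wild type, with 1 kb added to each. The median over the 14692 genes with a mean of at least 2 kb, 0.39, was then subtracted. By a rule of size, a gene at or beyond 1 or -1 on this centred scale was counted as higher or lower, which 10.3% and 4.08% of those genes were. None of the 9 members that reached 2 kb passed the rule in either direction. Their median was -0.15, beside 0 for all such genes by construction, with 2 members above 0 and 7 below. Without centring the median was 0.25, with 8 above 0 and 1 below, so 7 of the 9 lie below the median gene, while 8 of the 9 have a longer sum in the knockout library. Tlr6, with a mean under 2 kb, was not measured on this scale.

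In order of summed length, the knockout library ran Tlr5, Tlr2, Tlr4, Tlr1, Tlr13, Tlr7, Tlr3, Tlr9, Tlr8 and Tlr6, from 13.9 kb down to 1.80 kb. The wild-type library ran Tlr2, Tlr5, Tlr4, Tlr1, Tlr13, Tlr7, Tlr3, Tlr8, Tlr9 and Tlr6, from 10.5 kb down to 1.52 kb. The orders differed in 2 neighbouring pairs, Tlr5 with Tlr2 and Tlr9 with Tlr8. With 1 library per genotype there is no spread against which to judge a place in the order. The sums are per gene and are not divided by the length of the gene or of the region from which it collects peaks.

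Most peaks of the family were found in both libraries. Peaks with 1 bp or more in common between the libraries were counted as shared. Of the 81 knockout peaks 58 were shared (71.6%, exact 95% interval 60.5% to 81.1%), beside 49.5% of all knockout promoter and distal peaks. Of the 69 wild-type peaks 58 were shared (84.1%, interval 73.3% to 91.8%), beside 72.5% of all such wild-type peaks. With lists of equal length, 70.7% of the knockout and 59.4% of the wild-type peaks of the family were shared, beside 51.4% of all peaks in either list. The intervals cover counting error only and treat peaks as independent, which neighbouring peaks of 1 gene need not be.

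Among distal peaks, 49 of 70 in the knockout library and 49 of 59 in the wild-type library were shared, 70.0% and 83.1%, where the shares over all distal peaks were 43.7% and 67.1%. Promoter peaks of the family were shared in 9 of 11 and 9 of 10 cases, beside 78.9% and 93.5% over all promoter peaks. The median distance between the centres of a shared pair was 39.8 bp for the family, beside 37.0 bp over all shared peaks. For promoter pairs it was 62.5 bp in the family and 27.0 bp over all, and for distal pairs 38.5 bp and 42.0 bp. Promoter pairs had a median of 86.3% of their joint bases in common, beside 93.1% over all promoter pairs.

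Measured in bases, 45.8 kb lay in a peak of both libraries, 55.3% of the 82.8 kb that lay in a peak of either. Per gene this percentage was 75.9% for Tlr4, 70.0% for Tlr3, 63.9% for Tlr13 and 61.7% for Tlr5. It was 59.5% for Tlr9, 57.5% for Tlr7, 54.4% for Tlr2, 36.6% for Tlr8, 32.1% for Tlr6 and 30.4% for Tlr1. The median over the 14692 measured genes was 39.7%, with quartiles of 24.8% and 54.7%. Tlr4 and Tlr1 thus stood at opposite ends of the family, at percentiles 95.8 and 33.8 of those genes.

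Of the surface receptors, Tlr4 binds bacterial lipopolysaccharide together with its co-receptor, and its signalling is known to promote fibrosis after bile duct ligation in mice. The gene lies on chromosome 4 (mm10, 66827551 to 66846581), and it had 11 knockout and 9 wild-type peaks, with 9.54 and 7.84 kb. All 9 wild-type peaks recurred in the knockout library, from 58.2 kb upstream to 29.1 kb downstream of the start. The promoter peaks, at 66827146 to 66828055 in the knockout and 66827156 to 66828068 in the wild-type library, overlapped by 900 bp. A distal pair at 66816341 to 66817377 and 66816350 to 66817377, 10.2 kb upstream, overlapped by 1028 bp. The knockout library had 2 further peaks, 33.5 kb upstream and 55.4 kb downstream. The centred log2 ratio was -0.14.

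Tlr2 (chromosome 3, 83836272 to 83841824) binds bacterial lipoproteins in pairs with Tlr1 or Tlr6. It had 12 peaks in each library, with 10.7 kb in the knockout and 10.5 kb in the wild-type library, a centred log2 ratio of -0.37. Equal numbers did not mean equal sites, since 9 peaks of each library were shared and 3 were not. The knockout library had its own peaks 7.42, 23.2 and 93.8 kb upstream, the last of which was also assigned to the neighbour Tmem131l. The wild-type library had its own 1.49 and 53.8 kb upstream and 19.3 kb downstream. The promoter peaks, 83841028 to 83841937 in the knockout and 83841078 to 83841947 in the wild-type library, overlapped by 860 bp and both covered the whole printed window.

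Tlr1 (chromosome 5, 64924680 to 64933600) pairs with Tlr2 to bind triacylated lipoproteins. It had 11 knockout and 9 wild-type peaks, with 9.05 and 7.63 kb and a centred log2 ratio of -0.17. Its promoter peak was present in both libraries but at different places. The knockout peak lay at 64933191 to 64934013 and covered all 300 bases of the upstream window and none of the downstream one. The wild-type peak lay at 64932032 to 64932889 and covered 240 bases of the downstream window and none of the upstream one. A gap of 301 bp separated the peaks, and the annotated starts are 859 bp apart. Of the 14297 genes with a promoter peak in both libraries, 63 (0.441%) had no overlap between them, and Tlr1 was the only member among these.

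Downstream of Tlr1 the libraries shared some sites and not others. Shared regions lay 9.19, 26.4, 31.7, 35.4 and 48.0 kb downstream, as measured on the knockout peaks, and a further knockout peak at 48.8 kb touched the same wild-type peak as the last of these. The knockout library had its own peaks at 23.9, 50.1, 52.9 and 54.2 kb, and the wild-type library its own at 13.3, 19.5 and 45.0 kb. In all, 5 of 11 knockout and 4 of 9 wild-type peaks lacked a partner, and 6 and 5 had one. Over all promoter and distal peaks, 49.5% of the knockout and 72.5% of the wild-type ones had a partner. None of the Tlr1 peaks was assigned to a second gene.

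Tlr6 (chromosome 5, 64953092 to 64970942), the neighbour of Tlr1, pairs with Tlr2 to bind diacylated lipoproteins. It had the fewest peaks of the family in both libraries, 2 in each, with 1.80 kb in the knockout and 1.52 kb in the wild-type library. The promoter peaks, 64960795 to 64961680 and 64960812 to 64961618, overlapped by 807 bp. The second knockout peak lay 3.01 kb upstream of the start that the deposited annotation used. The second wild-type peak, 64959021 to 64959737, was annotated as 310 bp downstream of that start. It covered the whole printed window and lay across the RefSeq start of that window, at 64959166.

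Tlr5 (chromosome 1, 182954752 to 182976044) binds bacterial flagellin. It had the most knockout peaks, 16 against 12 in the wild-type library, with 13.9 and 10.1 kb in sum and a centred log2 ratio of 0.03. All 12 wild-type peaks recurred. Beside the promoter peaks they included a distal peak 5.02 kb downstream and a row of distal peaks reaching 86.1 kb upstream. The outer 3 of that row were in both libraries also assigned to Susd4. Each library had 2 promoter peaks. The 4 peaks of the knockout library alone lay 38.0 and 16.5 kb upstream, 2.24 kb downstream, and inside the gene 4.23 kb upstream of a later start. The upstream promoter peaks overlapped by 617 bp and the ones at the start by 716 bp.

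**Figure D2:**
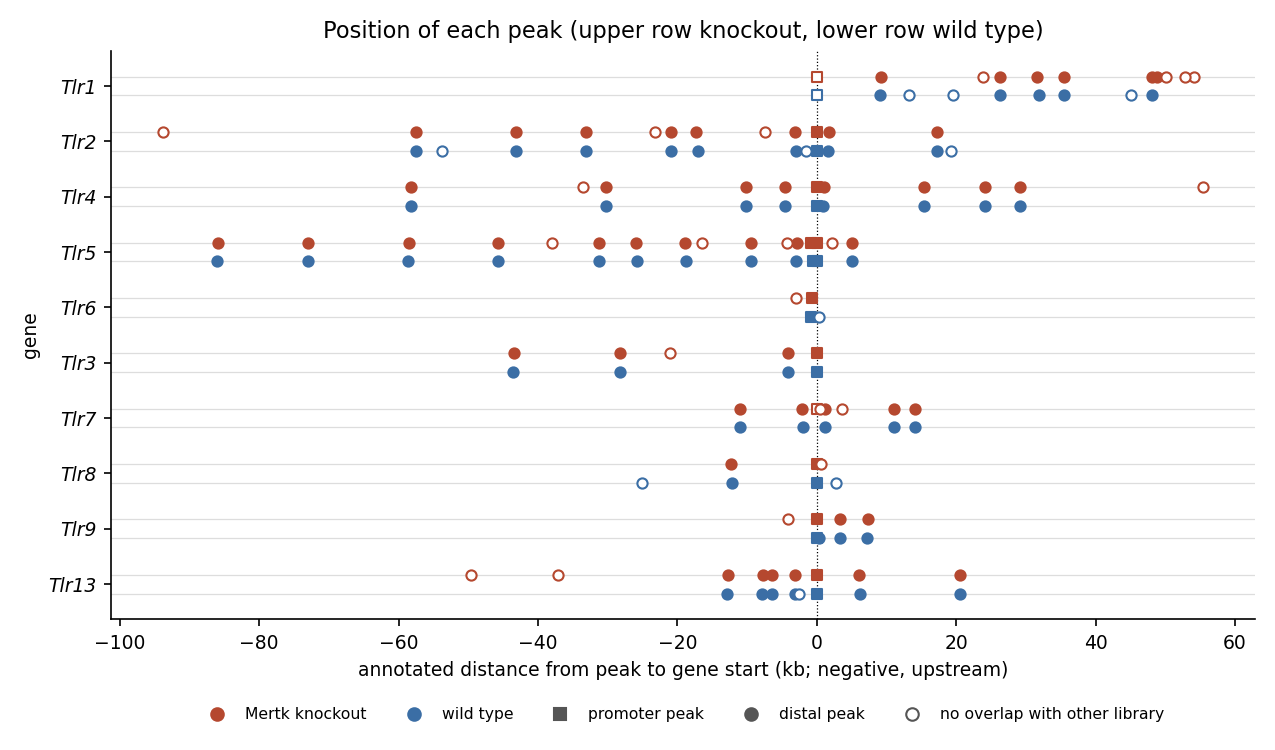
Position of every peak of the 10 genes as its distance to a start of the gene in the deposited annotation, in kb, with upstream distances negative. For each gene the upper row is the Mertk knockout library and the lower row the wild-type library, squares are promoter and circles distal peaks, and open symbols have no overlap with the other library. Tlr5 and Tlr2 reach 85.8 and 93.8 kb upstream in the knockout library, and both promoter squares of Tlr1 are open.

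Of the nucleic acid receptors, Tlr3 binds long RNA duplexes. The gene (chromosome 8, 45395665 to 45411075) had 5 knockout and 4 wild-type peaks, with 4.50 and 3.64 kb and a centred log2 ratio of -0.15. All 4 wild-type peaks recurred, at the promoter and 4.14, 28.2 and 43.6 kb upstream. The knockout library alone had a peak 21.1 kb upstream. The promoter peaks, 861 bp wide in the knockout and 1029 bp in the wild-type library, overlapped by 785 bp and were also assigned to the predicted gene Gm45542.

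Tlr7 and Tlr8 lie next to each other on chromosome X, and Tlr13 on the same chromosome. In the mouse Tlr7 binds uridine-rich RNA, and Tlr13 a stretch of bacterial ribosomal RNA. Tlr7 (167303380 to 167330574) had 8 knockout and 5 wild-type peaks, with 6.56 and 4.34 kb and a centred log2 ratio of 0.11, which was -0.53 with lists of equal length. Of the 10 members, 9 had a promoter peak in both libraries (81.4% of all genes with one) and 1, Tlr7, did not. The knockout promoter peak lay at 167330340 to 167331313, and the nearest wild-type peak was 999 bp away. Over all genes with a promoter peak, 15.4% had one called only in the knockout and 3.17% only in the wild-type library.

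All 5 wild-type Tlr7 peaks recurred in the knockout library. They lay 11.1 and 2.05 kb upstream and 1.16, 11.1 and 14.1 kb downstream of the start. The other knockout peaks without a partner lay 452 bp and 3.66 kb downstream, the nearer of them 68 bp from a wild-type peak. The Tlr7 peaks called only in the knockout library were thus the promoter peak and 2 peaks inside the gene.

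Tlr8 (167241123 to 167264329) went the other way in number, with 3 knockout and 4 wild-type peaks. Its summed length was 2.83 kb in the knockout and 3.62 kb in the wild-type library, the only member with less in the knockout library. The centred log2 ratio of -0.66 lay at percentile 12.5 of measured genes. The promoter peaks overlapped by 855 bp and a pair 12.2 kb upstream by 870 bp. The knockout library alone had a peak 570 bp downstream of the start, and the wild-type library alone had peaks 2.71 kb downstream and 25.1 kb upstream.

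Tlr9 (chromosome 9, 106222598 to 106226876) binds DNA with unmethylated CpG. It had 4 peaks in each library, with 3.43 kb in the knockout and 2.92 kb in the wild-type library and a centred log2 ratio of -0.21. At the start, 1 knockout peak (106222224 to 106222973) touched 2 wild-type peaks, by 614 bp the promoter peak at 106222167 to 106222837 and by 25 bp a narrow one of 483 bp at 106222949 to 106223431. Pairs 3.30 and 7.30 kb downstream, by the knockout peaks, overlapped by 882 and 848 bp. The knockout library alone had a peak 4.13 kb upstream.

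Tlr13 (chromosome X, 106143275 to 106160493) had 9 knockout and 8 wild-type peaks, with 7.89 and 6.28 kb and a centred log2 ratio of -0.11. The promoter peaks overlapped by 787 bp, and 7 of the peaks in each library were shared. The 2 knockout peaks without a partner, 37.1 and 49.6 kb upstream, were also assigned to the neighbour Atp7a. The wild-type peak without a partner, 2.49 kb upstream, was 110 bp from a knockout peak. The labels do not give the sex of the animals, so sex and genotype cannot be told apart at the 3 genes on chromosome X.

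**Figure D3:**
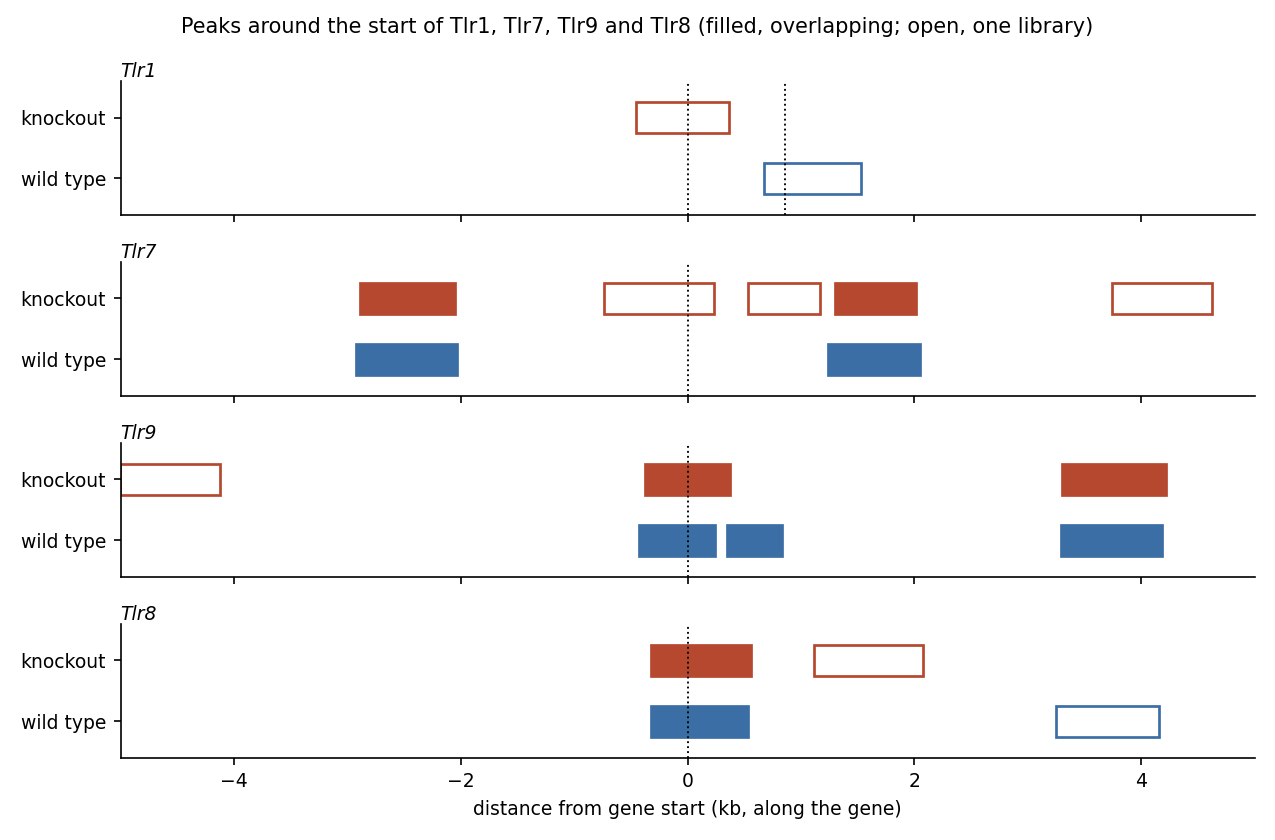
Peaks within 5 kb of the start of Tlr1, Tlr7, Tlr9 and Tlr8, drawn to scale along the gene in kb, with the Mertk knockout library above the wild-type library. Filled boxes overlap a peak of the other library, open boxes do not, and dotted lines are RefSeq starts, of which Tlr1 has a pair 859 bp apart. The Tlr1 promoter boxes lie on different starts, and the box across the Tlr7 start is in the knockout row alone.

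By group, the 5 surface receptor genes had 52 knockout and 44 wild-type peaks, with 45.0 and 37.6 kb, and the 5 nucleic acid receptor genes had 29 and 25, with 25.2 and 20.8 kb. The groups shared similar parts of their peaks, 71.2% and 72.4% in the knockout library and 81.8% and 88.0% in the wild-type library. Distances to the start were as follows. Among surface receptor genes, 28 of 52 knockout and 20 of 44 wild-type peaks lay more than 20 kb from the start, and among nucleic acid receptor genes 6 of 29 and 4 of 25. The whole family had 42.0% of its knockout and 34.8% of its wild-type peaks beyond 20 kb, where all gene assignments had 30.0% and 28.1%.

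In the knockout library the median width was 889 bp for the 23 peaks without a partner and 874.5 bp for the 58 with one. In the wild-type library the medians were 858 bp for 11 peaks and 872.5 bp for 58. Of the peaks without a partner, 2 of the 23 knockout and 2 of the 11 wild-type peaks lay within 500 bp of a peak of the other library. Of the 23 knockout peaks, 12 lay beyond 20 kb from the start, and of the 11 wild-type peaks 3 did. Of the 58 peaks with a partner in each library, 22 knockout and 21 wild-type ones did. Inside the RefSeq gene bodies lay 25 of 81 knockout and 21 of 69 wild-type peaks. Of the family's peaks, 8 knockout and 5 wild-type ones (9.88% and 7.25%) were also assigned to another gene, where 35.7% and 35.2% of all assignments were.

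The genes that serve the receptors were taken from a list of 45, all of which had peaks, and 41 reached the 2 kb minimum. They had 309 knockout and 284 wild-type peaks. None was higher by the size rule and 4 were lower, beside 10.3% and 4.08% of all measured genes, and the median centred log2 ratio was -0.34, with 9 above 0 and 32 below. Without centring the median was 0.05.

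Accessory and trafficking genes had a median of -0.21 over 8 measured genes, and none passed the rule. Of the 9 listed genes of this kind, 5 had more knockout peaks, 3 fewer and 1 an equal number. Ly96, whose product MD-2 holds lipopolysaccharide for Tlr4, had 3 knockout and 5 wild-type peaks (-0.95), and the co-receptor gene Cd14 5 and 6 (-0.71). These are the lowest of the 8 measured genes, and Lbp, at the other end of them, had 7 and 4 peaks (0.18). Ly96, Cd14 and Lbp are named here with their values already known. Hsp90b1, a chaperone that folds Toll-like receptors, had 2 knockout peaks, 1 of them at the promoter, and none in the wild-type library. All 5 adaptor genes had promoter peaks in both libraries, among them Myd88 with 2 peaks in each, likewise named with its values known.

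Kinases and ubiquitin ligases had a median of -0.44 over 15 measured genes, with 2 lower. Irak1, a kinase recruited through Myd88, had 3 knockout and 7 wild-type peaks (-1.42), and Ikbkb, a kinase that releases NF-kB from its inhibitors, had 4 and 8 (-1.23). Ikbke, a kinase of interferon induction, had 7 and 6 peaks, its promoter peak called only in the wild-type library. These genes had their promoter peaks in both libraries in 15 of 16 cases.

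Transcription factor genes had a median of -0.39 over 6 measured genes, all below 0. Rel, the gene of the NF-kB subunit c-Rel, had 5 knockout and 10 wild-type peaks (-1.22) and passed the size rule. Inhibitor genes had a median of -0.10 over 8. Tnip3, which encodes a binding partner of the NF-kB inhibitor A20, had 5 and 13 peaks (-1.56), its promoter peaks called only in the wild-type library. Nfkbia, the gene of the inhibitor IkB-alpha, had 12 and 7 (0.33), its promoter peak called only in the knockout library.

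Other innate sensors, such as the Nod-like and RIG-I-like receptors, had 95 knockout and 108 wild-type peaks over 17 of 18 listed genes. Of 14 measured genes 0 were higher and 1 was lower, and the median was -0.44. Nlrp1b, an inflammasome sensor, had 6 knockout and 13 wild-type peaks (-1.38). Pycard, the inflammasome adaptor, was listed with 0 knockout peaks and 1 wild-type peak, at its promoter.

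Markers of the cell types in the samples also differed between the libraries. Of 8 Kupffer cell markers, 0 were higher and 2 lower by the size rule, with 52 knockout and 59 wild-type peaks (43.9 and 49.0 kb) and a median of -0.49. The lower ones were Vsig4, with 1 and 8 peaks, and Folr2, with 3 and 5. By peak number, 3 of the 8 Kupffer cell markers had more knockout peaks, 4 fewer and 1 an equal number. Of 6 measured monocyte and macrophage markers, 0 were higher and 3 lower, with 61 and 68 peaks (51.8 and 57.6 kb) and a median of -0.68. The lower ones were Ccr2, Itgam and Itgax. In peak number the 8 listed monocyte and macrophage markers were split, with 4 having more knockout peaks, 3 fewer and 1 an equal number. Dendritic cell markers had 25 and 30 peaks (21.9 and 25.8 kb) and neutrophil markers 26 and 30 (22.8 and 25.2 kb), of which 4 of 7 genes had more knockout peaks and 3 fewer, among them Ltf, lower by the size rule, and Retnlg, at 0 in the knockout library. With lists of equal length, a cut of the knockout list alone, the receptor genes had 58 knockout and 69 wild-type peaks. In those lists Kupffer cell markers had 29 and 59, and monocyte and macrophage markers 38 and 68. Endothelial markers there had 65 and 55, stellate cell and fibroblast markers 40 and 8, and hepatocyte markers 36 and 11.

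Markers of B cells had 7 and 9 peaks (5.96 and 6.81 kb), with Cd79a at 0 in both libraries. Those of T and NK cells had 8 and 13 (7.003 and 11.8 kb), with Ncr1 lower and Nkg7 at 0 in the knockout library. By peak number, 0 of the 6 T and NK cell markers had more knockout peaks, 2 had fewer and 4 an equal number. Endothelial markers had 100 knockout and 55 wild-type peaks (85.4 and 46.8 kb). Stellate cell and fibroblast markers had 57 and 8 (48.9 and 6.55 kb), all 6 higher, with Des at 0 in the wild-type library. Hepatocyte markers had 70 and 11 (57.1 and 8.28 kb), 6 of 7 higher, with Alb, Cps1, Cyp3a11, Cyp2e1 and Serpina1a at 0 in the wild-type library. That library thus lacked peaks at most of the defining genes of the main cell type of the labelled tissue. Cholangiocyte markers had 11 and 9 peaks (10.0 and 7.96 kb), with Krt7 at 0 in both and Sox9 at 0 in the wild-type library. The part of these cell types, and of depth, in the values of the Toll-like receptor genes was not tested.

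**Figure D4:**
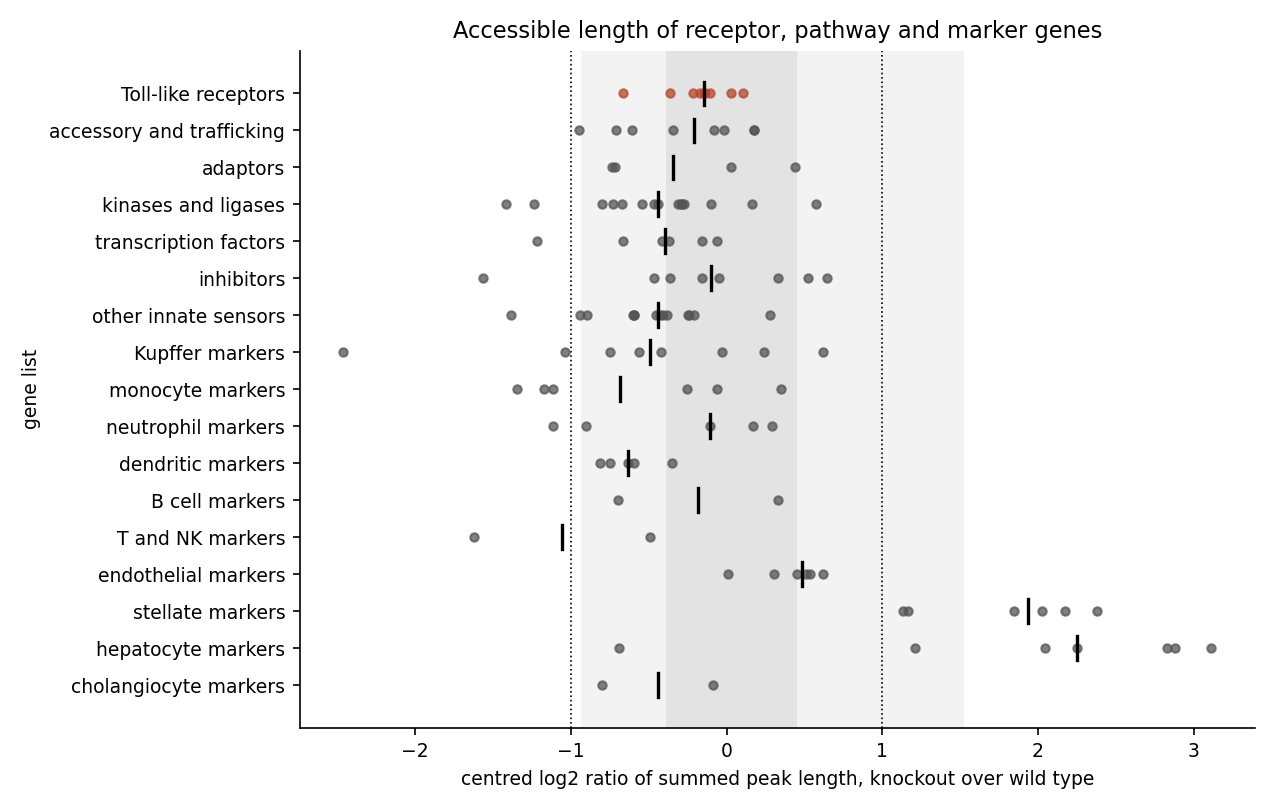
Centred log2 ratio of summed peak length, Mertk knockout over wild type, for the measured genes of each list (points) with the list median (bar). Dark grey spans the quartiles of all 14692 measured genes, light grey their percentiles 5 to 95, and dotted lines are the size rule at -1 and 1. All 9 measured Toll-like receptor genes lie between the dotted lines, with a median of -0.15, while 6 stellate and 6 hepatocyte markers lie beyond 1.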

How the data were processed

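Per the file headers, both ATAC libraries were processed by the authors with cellranger-arc 2.0.2 on an mm10 reference, in separate runs, so each library has its own peak calling. Settings of the caller: not given in the sources used here. Each row of the deposited annotation gives a peak's start and end, its genes, its class and its signed distance. The deposited barcode tables hold raw counts per barcode and were used for depth alone.

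Unplaced contigs were left out, and positions are 1-based. Ratios were computed over all genes and then read for the members. The overlap code gave the same counts as bedtools 2.31.1, and it and the ratios were tested on simulated data. RefSeq genes and promoters are those of GRCm38, the assembly behind mm10. Scripts ran in Python 3.11.15 with matplotlib 3.10.9, pandas 2.3.3, numpy 2.4.6 and scipy 1.17.1.

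The members and lists were chosen with earlier results of these data known. Beyond the members, the text names genes that share a peak with a member. Of the pathway and sensor lists it names genes past the size rule or whose promoter peak was called in only 1 library. It also names Ly96, Cd14, Lbp and Myd88, which meet neither rule and were chosen with their values known. Of the marker lists it names lower genes and genes at 0, chosen with their values known. No gene is named for a pattern like a member's, since the libraries give a pair of values per gene. The RNA counts per gene were not used here. The 16 alternatives are in the closing section.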

Additional observations from a re-analysis of the deposited data

How the results depend on the processing

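Under 16 alternative settings, 174 of 181 recomputed values stayed near the reported ones, within 1.5 times for counts and within the exact binomial interval of the peak numbers for shares and ratios, and 7 did not. Those intervals are wide, and no member passed the size rule, so the signs of the ratios were not firm. Of 105 ratios of single members 12 changed sign, 6 of them without centring and 6 in other settings, in Tlr3, Tlr5, Tlr7 and Tlr9, and the median changed sign without centring. With a size rule of 0.58, 1 member, Tlr8, was lower and 0 were higher. Assigned by position, as gene body with 10 kb flanks, the family had 48 knockout and 44 wild-type peaks, and with promoter peaks alone 11 and 10, settings that remove distal peaks by construction. With promoter peaks alone 81.8% of the knockout peaks were shared, and no member reached the 2 kb minimum, so no ratio was had. With equal peak number in both lists, keeping the widest, the family had 58 knockout and 69 wild-type peaks, the other order. That setting removes knockout peaks alone, so the fall in their number was by construction. The wild-type share in that setting was 59.4%, beside 51.4% of all peaks. The median ratio ranged from -0.30 to 0.25, where 0.25 is the value without centring, and that of single members from -0.86 to 0.50.

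No paired analysis was possible because each genotype has 1 library, and for the same reason no replicate was left out. The peak lists hold calls without heights, so depth limits which sites are listed, and the size of a difference at a site is unknown.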

Other observations

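The mouse genes Tlr11 and Tlr12, which encode receptors for profilin of protozoan parasites, were outside the 10 genes and were chosen after their values were seen. Tlr11 had 3 peaks in each library, with 3 promoter peaks in the knockout and 1 in the wild-type library, 2.45 and 2.51 kb in sum. Tlr12 had 2 knockout peaks, 1 of them at the promoter, and was listed with 0 in the wild-type library.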
